A study of Mus musculus with 27 samples.

Results

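Primary mouse hepatocytes in culture were treated for 24 h with 1 µM of a synthetic compound that the labels spell GW3596, GW3964 or GW3965, called GW here, or with an equal volume of ethanol as the vehicle. The comparison rests on 6 of the 27 RNA-seq libraries of the series, 3 with GW and 3 with vehicle, chosen by the treatment and cell type in their labels, and covers every gene identifier of the count table. Hepatocytes were plated on collagen in serum-containing medium, moved after attachment to Williams' E maintenance medium without serum, and both groups were kept in that same medium during treatment. The other libraries of the series are primary microglia, bone marrow-derived macrophages (BMDM) and another treatment, 10 µM of the plant sterol 24(S)-saringosterol. Its 3 hepatocyte libraries were not compared here. They entered the gene filter, the scaling, the estimate of the spread between libraries and the principal components. No strain, sex or age of the animals is given in the labels, and nothing in them tells whether libraries of 1 group trace to different mice or culture wells, so p-values measure only the spread between these libraries.

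GW3965 is a laboratory compound known to activate both liver X receptors, LXRα (gene Nr1h3) and LXRβ (gene Nr1h2). These nuclear receptors bind oxidised cholesterol, pair with a retinoid X receptor (RXR) and switch on genes for cholesterol export. In liver they also raise the transcription factor SREBP-1c, made from Srebf1, and through it the synthesis of fatty acids, which is why LXR agonists are known for fatty liver. SREBP-2, made from Srebf2, drives cholesterol synthesis and responds to the sterol content of the cell.

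The 9 hepatocyte libraries held between 30295862 and 40727673 counts. A count of 0 allows at most 0.0737 to 0.099 CPM, counts scaled to library size, by counting error. The lowest total was that of saringosterol replicate 1. Among the 6 compared libraries GW replicate 2 was lowest, with 31470464 counts and a limit of 0.0953 CPM. Gene levels below are CPM on library sizes scaled by the TMM method. Hepatocyte identity genes were abundant: the summed level of 12 markers, Alb and Trf among them, lay between 33440 and 35050 CPM with GW and between 34240 and 36410 CPM with vehicle. Of 13 macrophage and Kupffer cell markers, Cd14 and Cd68 carried nearly all of a summed level of 978 to 1014 CPM with GW and 944 to 1019 CPM with vehicle, while Adgre1 and Csf1r stayed below 1.2 CPM in each of the 9 hepatocyte libraries. The first 2 principal components of the 9 hepatocyte libraries held 17.3% and 15.2% of the variance. On the second, GW replicate 2 stood apart from the other GW libraries. The first did not separate GW from vehicle, but set the saringosterol libraries (10.9 to 25.7) apart from the others (at most 3.1).

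GW changed a small number of genes, most of them upward. Of 16098 genes tested, 178 (1.11%) were called at an adjusted p under 0.05 with edgeR's quasi-likelihood test: 116 higher (0.721%) and 62 lower (0.385%). Of these, 21 rose at least 2-fold and another 21 rose between 1.5-fold and 2-fold. No called gene fell to 0.5 of its vehicle level, and 2, Cdh17 and Lmcd1, fell at least 1.5-fold. The median log2 fold change was 0.42 among genes called higher, -0.27 among those called lower and 0 among all genes tested. Among all genes tested, 8042 had a positive log2 fold change and 1329 an unadjusted p under 0.05. All 116 higher genes had every GW library above every vehicle library, and all 62 lower genes the reverse; over all tested genes that held for 6.82% and 6.96%. The count of lower genes was 35 without GW replicate 1 and 37 without vehicle replicate 3.

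**Figure D1:**
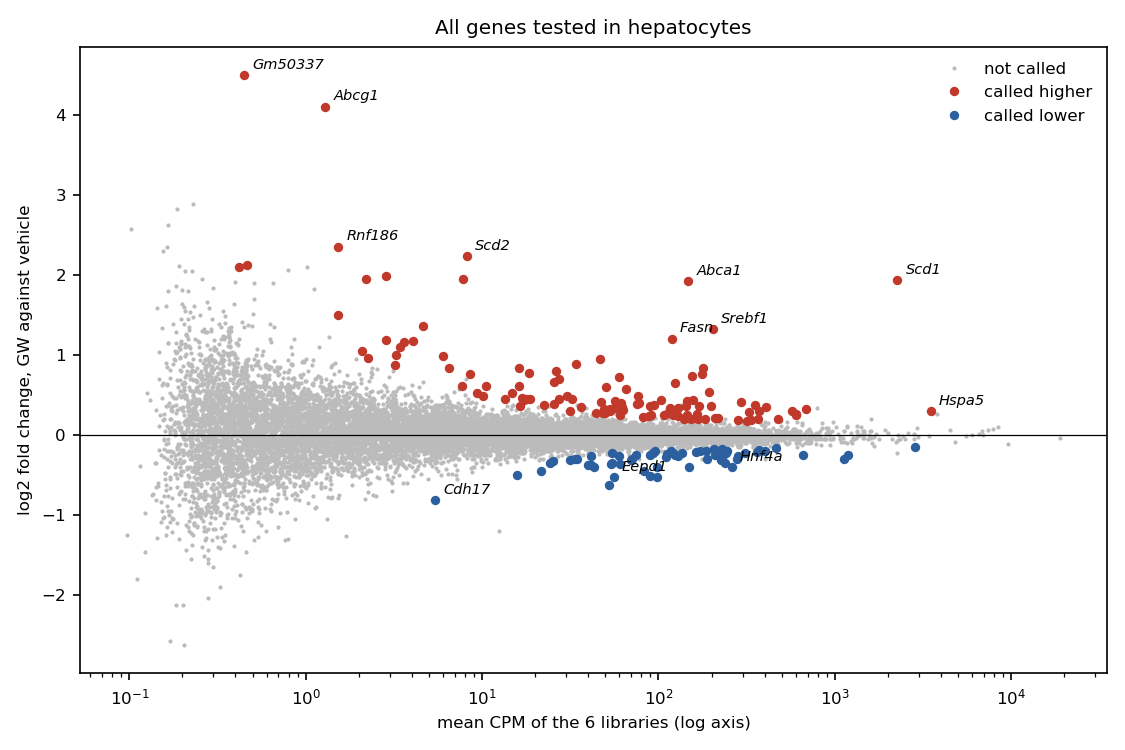
Each point is 1 of 16098 genes tested in hepatocytes, with its mean level over the 3 GW and 3 vehicle libraries in CPM on a log axis and its log2 fold change, GW against vehicle. Called genes are coloured: Abcg1, Abca1 and the Scd genes lie far above 0, while genes called lower, in blue, reach down to a log2 fold change of -0.82 for Cdh17.

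The receptors themselves were present and did not pass the test. In vehicle cells the deposited length-scaled level (TPM) was 117 TPM for Nr1h2 and 65.5 TPM for Nr1h3. With GW their log2 fold changes were -0.01 ± 0.05 (SE) and -0.09 ± 0.06, with adjusted p of 0.986 and 0.757 (edgeR). Of 11 receptor, RXR and cofactor genes tested, edgeR called 0, DESeq2 called 0, limma-voom called 0, and 1 had an unadjusted p under 0.05.

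Among 16 tested genes of a list of established LXR targets, 6 rose and 0 fell, and the median log2 fold change of the 16 was 0.49 against 0 for all genes. Abca1, which exports cholesterol to lipid-poor apolipoprotein A-I, measured 56.5, 63.7 and 64.9 CPM in the vehicle libraries and 241, 227 and 234 CPM in the GW libraries. The groups lay far apart, and the rise was 3.79-fold (log2 fold change 1.92 ± 0.07 SE, adjusted p = 1.7e-14, edgeR). Abcg1, which passes cholesterol to high-density lipoprotein, went from 0.149, 0.106 and 0.162 CPM to 2.39, 2.01 and 2.9 CPM. This was the steepest rise of any gene above 1 CPM (log2 fold change 4.1 ± 0.41, adjusted p = 8.05e-08, edgeR), from a vehicle level close to the limit of a count of 0. DESeq2 gave Abcg1 no adjusted p.

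Srebf1, the source of SREBP-1c, rose from 125, 106 and 118 CPM to 294, 268 and 311 CPM, with no overlap (log2 fold change 1.32 ± 0.07, adjusted p = 3.63e-11, edgeR). The counts do not separate its SREBP-1a and SREBP-1c transcripts. Lpcat3, which places polyunsaturated fatty acids into phospholipids, measured 122, 110 and 118 CPM with vehicle and 195, 185 and 202 CPM with GW, a log2 fold change of 0.73 ± 0.05. It overlaps the gene Emg1 on the opposite strand, and the strand setting of the counting is not given in the sources used here. The ubiquitin ligase gene Rnf145 rose from 24 ± 0.945 to 44.3 ± 1.6 CPM (SD, n = 3 each). Lpl, lipoprotein lipase, rose from a low 2.14, 2.35 and 2.98 CPM to 6.5, 3.73 and 6.52 CPM, and its GW replicate 2 was the lowest of the 3 GW libraries.

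Other LXR targets did not pass the test in these cells. Of all 16 tested, however, 15 had a positive log2 fold change and 11 an unadjusted p under 0.05. Over the 16098 genes tested these were 8042 and 1329. Apoe, an apolipoprotein gene abundant here, was at 6549 ± 420.4 CPM with vehicle and 6579.6 ± 164 CPM with GW (SD, n = 3 each), a log2 fold change of 0.01 ± 0.04 (adjusted p = 0.988, edgeR). The biliary sterol exporters Abcg5 and Abcg8 had log2 fold changes of 0.41 ± 0.24 and 0.58 ± 0.19 at under 4 CPM, and adjusted p of 0.719 and 0.209. Mylip, a ubiquitin ligase gene, was near the counting limit at 0.0965 CPM with vehicle and 0.302 CPM with GW (adjusted p = 0.45, edgeR). Arl4c (0.41 ± 0.11, adjusted p = 0.0882) and the phospholipid transfer protein gene Pltp (0.19 ± 0.09, adjusted p = 0.579) stayed outside the threshold too. In the fit of all 27 libraries, described below, Arl4c was called higher in hepatocytes (0.4 ± 0.07, adjusted p = 0.00248, edgeR). Apoc2 and Cyp7a1, the rate-limiting enzyme gene of bile acid synthesis, were too low to be tested.

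**Figure D2:**
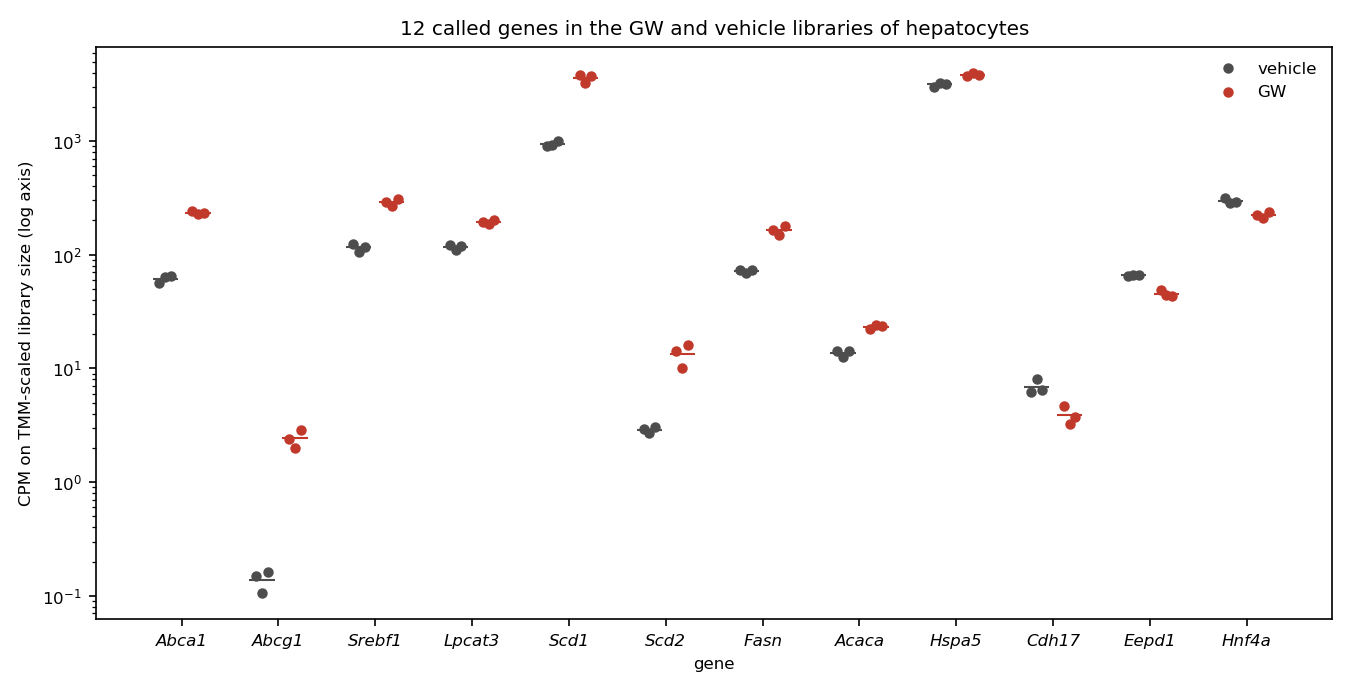
Dots are the level of each of 12 called genes in the 3 vehicle (grey) and 3 GW (red) libraries of hepatocytes, in CPM on a log axis; bars are group means. In every one of the 12 genes the 2 groups are separate: 9 rose, and Cdh17, Eepd1 and Hnf4a fell.

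The stearoyl-CoA desaturase genes formed a block of rising genes on chromosome 19. These enzymes put the first double bond into saturated fatty acids. Scd1, the main hepatic form, measured 904, 922 and 993 CPM with vehicle and 3788, 3219 and 3760 CPM with GW, a 3.82-fold rise (log2 fold change 1.93 ± 0.05, adjusted p = 1.37e-20, edgeR). Scd2 rose from 2.91, 2.72 and 3.03 CPM to 14.4, 10.2 and 16 CPM (log2 fold change 2.23 ± 0.16). Scd3 and Scd4 rose by 1.94 ± 0.15 and 1.98 ± 0.26 on the log2 scale. In vehicle cells the length-scaled level was 538 TPM for Scd1, 1.48 TPM for Scd2, 2.55 TPM for Scd3 and 0.86 TPM for Scd4.

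The files place 10 annotated genes in the 234618 bases from the start of Scd3 to the end of the long noncoding RNA gene Gm50337 (GRCm38, chr19:44203269-44437886). Of these, 6 had enough counts to be tested. All 6 were called higher, against 0.721% of all genes tested. The 6 are Scd3 (chr19:44203269-44244016, plus strand), the pseudogene Gm6951 (chr19:44252517-44261446), Scd2 (chr19:44293674-44306864, plus strand), Scd4 (chr19:44333092-44346743, plus strand), Scd1 (chr19:44394455-44407879, minus strand) and Gm50337. Gm50337 begins 11730 bases beyond the 5′ end of Scd1, is read on the plus strand, and had 4 counts in the 3 vehicle libraries together and 93 in the 3 GW libraries. Gm6951 had 18 and 74 counts, and lost its call without each library in turn and when genes were not filtered on low counts. Both Gm50337 and Gm6951 passed that filter only through their GW libraries. The stretch was also bounded at genes already called higher, Scd3 and Gm50337. The 6 of 6 therefore describes the locus and is not a test. The Scd genes and the pseudogene have near-identical stretches, and how reads that fit several genes were counted is not given in the sources used here, so the values of Scd2, Scd3, Scd4 and Gm6951 beside the abundant Scd1 are uncertain.

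Of 18 fatty acid synthesis genes tested, 6 rose and 0 fell, with a median log2 fold change of 0.22. Fasn, the synthase that builds palmitate, rose from 73.5, 69 and 74.1 CPM to 166, 150 and 181 CPM (log2 fold change 1.2 ± 0.06, adjusted p = 3.06e-14, edgeR). Acaca, acetyl-CoA carboxylase 1, which makes the malonyl-CoA that Fasn uses, rose from 13.6 ± 0.91 to 23.3 ± 1.07 CPM (SD, n = 3 each). Fads2, the first desaturase of polyunsaturated fatty acid synthesis, rose from 128 ± 10.6 to 228 ± 20 CPM (log2 fold change 0.83 ± 0.06). Elovl5, an elongase of polyunsaturated fatty acids, rose by 0.23 ± 0.05 on the log2 scale, a call that was lost without GW replicate 3.

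The remaining 12 members of that list stayed outside the threshold, and the steps that supply carbon were among them. Acly, which splits citrate into acetyl-CoA, was at 360 CPM with vehicle and 376 CPM with GW (log2 fold change 0.06 ± 0.05). Me1, malic enzyme, was at 273 and 285 CPM (0.06 ± 0.04). Mlxipl, which encodes the glucose-responsive factor ChREBP, was at 24.4 and 26 CPM (0.1 ± 0.08). Elovl6, the elongase that turns palmitate into stearate, had a log2 fold change of 0.32 ± 0.12 and an adjusted p of 0.346 (edgeR). Among suppliers of NADPH, Idh1 rose by 0.21 ± 0.04, a call lost without GW replicate 3, and it was the 1 called gene of 9 in the pentose phosphate and NADPH list.

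No cholesterol synthesis gene was called. Of 20 tested, edgeR called 0, DESeq2 called 0 and limma-voom called 0, while 3 had an unadjusted p under 0.05. Over all 16098 genes tested, 1329 did. Their log2 fold changes ran from -0.13 to 0.42 with a median of 0.06. Sqle, squalene epoxidase, was at 178 and 188 CPM (0.08 ± 0.05), and Cyp51, lanosterol demethylase, at 152 and 148 CPM (-0.03 ± 0.05).

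In the list of SREBP control and sterol uptake, 2 of 10 genes rose and 0 fell. Among them Insig1, which holds SREBP precursors in the endoplasmic reticulum, went from 86, 88.8 and 90.7 CPM to 124, 119 and 114 CPM (log2 fold change 0.43 ± 0.05, adjusted p = 2.61e-06, edgeR). Srebf2 had a log2 fold change of -0.1 ± 0.05 and did not pass (adjusted p = 0.71, edgeR).

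Further along the lipid pathways a smaller part of each list was called than in fatty acid synthesis. Of 21 tested genes for triglyceride synthesis and lipid droplets, 2 rose and 1 fell, and 4 had an unadjusted p under 0.05. Over all 16098 genes tested, 1.11% were called and 1329 had an unadjusted p under 0.05. Gpam, which starts glycerolipid synthesis at the mitochondrion, rose from 115 ± 1.96 to 144 ± 9.46 CPM (SD, n = 3 each). Lpin1, the phosphatidate phosphatase that makes diacylglycerol, rose by 0.48 ± 0.06 on the log2 scale. Fitm2, an endoplasmic reticulum protein gene needed for lipid droplet formation, fell by 0.28 on the log2 scale, and lost its call without GW replicate 1. Plin2, which coats lipid droplets and is abundant here, was at 2853 CPM with vehicle and 3016 CPM with GW (0.08 ± 0.04, adjusted p = 0.62, edgeR).

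Lpcat3 was the 1 called gene of 17 tested in phospholipid synthesis and remodelling. Of 22 apolipoprotein and lipoprotein genes, 7 had an unadjusted p under 0.05 and 2 were called. Lpl rose. Angptl4, an inhibitor of lipoprotein lipase, fell from 320, 299 and 302 CPM to 255, 240 and 254 CPM (log2 fold change -0.3 ± 0.05, adjusted p = 0.000142, edgeR). Apob, the structural protein gene of very-low-density lipoprotein, had a log2 fold change of -0.04 ± 0.04. Of 22 fatty acid oxidation and PPARα target genes, Ehhadh of the peroxisomal pathway rose by 0.44 ± 0.07 and Creb3l3, a liver transcription factor gene, fell by 0.31. Cpt1a, which admits fatty acids to mitochondria, was at 117 CPM in both groups.

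In the list of bile acid synthesis and transport, 1 of 19 genes rose. This was Abcb4, the phospholipid exporter of the bile canaliculus, which went from 40.4 ± 4.27 to 61 ± 4.84 CPM (SD, n = 3 each; log2 fold change 0.59 ± 0.08). Of 17 drug metabolism genes, Cyp2b10 rose by 0.31 ± 0.06 and Gstm1 by 0.19 ± 0.05. The call of Cyp2b10 was lost without GW replicate 2, and that of Gstm1 without each of GW replicates 1 and 3 and vehicle replicates 2 and 3. Igfbp1, a hormone-regulated binding protein of insulin-like growth factors, was the 1 called gene of 18 in gluconeogenesis and glucose handling, with a rise of 0.33 ± 0.05.

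**Figure D3:**
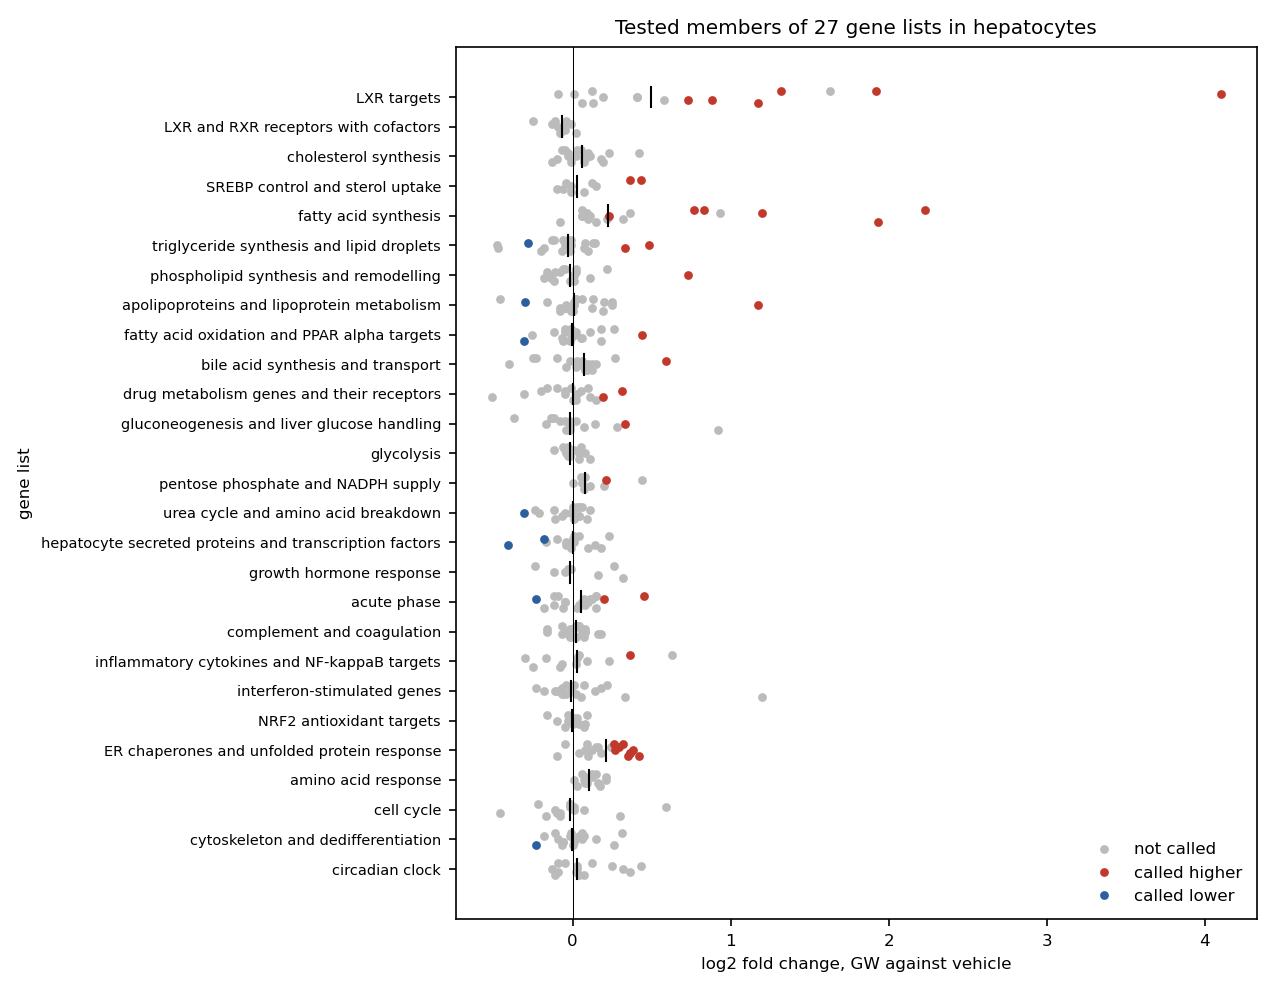
Points are the tested members of 27 gene lists, placed by log2 fold change, GW against vehicle, in hepatocytes; red and blue points were called higher and lower, and the black bar is the list's median. LXR targets (median 0.49), fatty acid synthesis (0.22) and endoplasmic reticulum chaperones (0.21) lie to the right, while cholesterol synthesis stays close to 0 (0.06).

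Some genes of protein folding in the endoplasmic reticulum (ER) rose by small amounts. The unfolded protein response raises chaperone genes when unfolded protein or a disturbed membrane loads the ER. Of 20 tested members of the list, 9 rose and 0 fell, 18 had a positive log2 fold change, and the median was 0.21. Over all genes tested, 8042 of 16098 had a positive log2 fold change. Hspa5, which encodes the chief ER chaperone BiP, measured 3009, 3219 and 3194 CPM with vehicle and 3695, 3962 and 3827 CPM with GW (log2 fold change 0.29 ± 0.04, adjusted p = 5.57e-05, edgeR). Herpud1, a part of ER-associated degradation, measured 122, 124 and 126 CPM with vehicle and 164, 164 and 169 CPM with GW (0.42 ± 0.05, adjusted p = 5e-07, edgeR). The groups did not overlap in either gene.

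The other risers were the BiP cofactor gene Sdf2l1 (log2 fold change 0.38 ± 0.06), the secreted ER proteins Manf and Creld2 (both 0.36 ± 0.05), the ER form of heat shock protein 90, Hsp90b1 (0.32 ± 0.05), Pdia4 (0.26 ± 0.04), Hyou1 (0.27 ± 0.06) and Ddit3, which encodes the stress factor CHOP (0.35 ± 0.07). Hyou1 lost its call without GW replicate 2, GW replicate 3 or vehicle replicate 1, and Ddit3 without GW replicate 2. Manf overlaps Dcaf1 and Rbm15b, so its counts are uncertain. Of the sensors and their direct products, Xbp1 had a log2 fold change of -0.1 ± 0.04, Atf6 of -0.05 ± 0.05 and Ern1 of 0.04 ± 0.08, none past the threshold. In the list of the amino acid response, which the transcription factor ATF4 controls, edgeR, DESeq2 and limma-voom each called 0 of 14, with 3 at an unadjusted p under 0.05. All 14 of its log2 fold changes were positive, from 0.01 to 0.21, against 8042 of the 16098 genes tested.

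**Figure D4:**
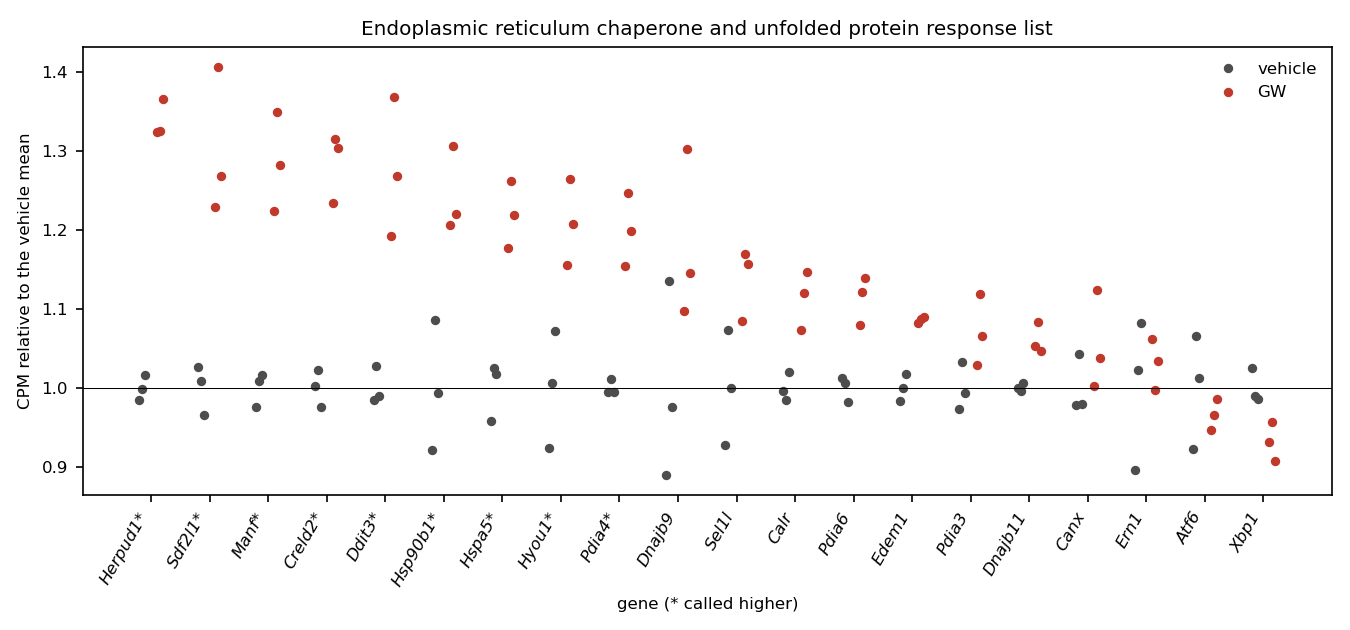
Dots are levels in the 3 vehicle (grey) and 3 GW (red) libraries, in CPM divided by the gene's vehicle mean, for the 20 tested ER chaperone and unfolded protein response genes in order of log2 fold change. Asterisks mark the 9 called genes, from Herpud1 (log2 fold change 0.42) to Pdia4 (0.26); the GW dots of these lie above all of their vehicle dots.

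The promoters of 2 of the genes that rose are shown for the sequence through which ATF6 and XBP1 are known to act, the ER stress element. It was searched as CCAAT, any 9 bases and CCACG, with no mismatch, on both strands in RefSeq promoter windows of GRCm38.p6, 250 bases before to 50 bases after a gene start in RefSeq. This motif was added after the values had been seen. Of the 9 called members, 7 had a window and 3 of these (42.9%) held the motif, as did 6 of 17 (35.3%) among all list members tested and 0.182% of all tested genes with a window. Outside the list, it was found in the called genes Derl3 and Dnajc3, which also encode ER proteins; Derl3 rose from 6.35 ± 0.631 to 10.8 ± 0.856 CPM (SD, n = 3 each). The 250 bases before the start of Hspa5 (chr2:34771840-34772089, plus strand) and Hsp90b1 (chr10:86705445-86705694, minus strand) follow 5′ to 3′, with the motif or its reverse complement in capitals.
Hspa5: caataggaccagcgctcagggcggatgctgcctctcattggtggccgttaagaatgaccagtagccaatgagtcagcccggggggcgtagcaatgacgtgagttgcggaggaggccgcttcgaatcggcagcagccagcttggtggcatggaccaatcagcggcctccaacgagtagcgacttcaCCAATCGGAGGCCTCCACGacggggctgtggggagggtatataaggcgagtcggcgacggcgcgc
Hsp90b1: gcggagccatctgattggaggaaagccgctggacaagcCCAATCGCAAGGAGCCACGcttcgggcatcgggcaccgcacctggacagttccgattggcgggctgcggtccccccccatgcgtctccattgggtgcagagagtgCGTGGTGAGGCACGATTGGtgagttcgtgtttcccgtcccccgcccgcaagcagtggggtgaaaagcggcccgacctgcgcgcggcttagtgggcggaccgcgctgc
Hspa5 held 1 such match and Hsp90b1 held 2, one on each strand. The RefSeq starts lie 120 bases for Hspa5 and 65 bases for Hsp90b1 inside the genes as the count files bound them, so the Hspa5 match falls within the counted gene. A match describes the letters and not the binding of a factor.

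The sequence to which LXR and RXR bind as a pair is known as DR4, a direct repeat of AGGTCA with 4 bases between. Up to 2 mismatches were allowed in its 12 fixed letters, and both strands of the same windows were searched. Of the 116 genes called higher, 90 had a window and 6 (6.67%) held a match. Of the 62 called lower, 45 had a window and 1 (2.22%) held one, against 2.87% of all tested genes with a window. The 6 are Acsl3, Gpam, Lcp1, Olfml1, Steap3 and Ugt2b35. The matches of the 2 lipid genes are shown in the direction of the motif, with letters that match the repeats in capitals.
Acsl3: AGGTtActatgGGTCA
Gpam: AGGctAgctgAGGTCA
The Acsl3 match lies at chr1:78657713-78657728 on the minus strand, 97 to 112 bases before the gene start. That of Gpam lies at chr19:55099668-55099683 on the minus strand, 191 to 206 bases before a second, internal RefSeq start, which is 27761 bases inside the gene as the count files bound it. The window at the outer start of Gpam held no match. Acsl3, which activates long-chain fatty acids, rose from 31.7 ± 3.1 to 61.1 ± 2.51 CPM (SD, n = 3 each), but shares its first part with Utp14b, which was called higher too, so reads of the 2 genes may be split. For Abcg1, Scd1 and Scd2 there was no window in the table, and the windows of Abca1, Srebf1, Fasn and Lpcat3 held no match. The SREBP site TCACNCCAC was found in 3.33% of the windowed genes called higher, 2.22% of those called lower and 1.43% of all tested. The E-box CACGTG was found in 13.3%, 6.67% and 11.8%.

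Several genes in none of the lists were among the 12 largest rises above 1 CPM. Rnf186, a ubiquitin ligase gene of the ER, measured 0.795, 0.265 and 0.433 CPM with vehicle and 2.92, 2.2 and 2.55 CPM with GW (log2 fold change 2.35 ± 0.35). Stc2, a secreted glycoprotein gene, rose from 0.745, 1.16 and 0.812 CPM to 3.45, 3.41 and 3.67 CPM. Urad, of uric acid breakdown, and Lipn, of the lipase family, rose by 1.49 ± 0.3 and 1.36 ± 0.16 on the log2 scale. In each of these genes the groups did not overlap.

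Falls were smaller than rises. Hnf4a, the nuclear receptor that maintains hepatocyte gene expression, measured 313, 284 and 292 CPM with vehicle and 222, 209 and 238 CPM with GW (log2 fold change -0.41 ± 0.05, adjusted p = 3.5e-06, edgeR). Of 15 hepatocyte transcription factor and secreted protein genes, 2 fell, 8 had a positive log2 fold change and the median was 0. Besides Hnf4a, the other that fell was Foxa3, whose -0.18 ± 0.05 passed narrowly (adjusted p = 0.0481) and lost its call under 8 of 12 alternatives, DESeq2 size factors, limma-voom and the fit on the 6 libraries alone among them. Alb was at 6894 CPM with vehicle and 6898 CPM with GW. Tdo2, the first enzyme of tryptophan breakdown, fell from 1195, 1340 and 1199 CPM to 964, 1115.5 and 941 CPM, and was the 1 called gene of 18 in urea cycle and amino acid breakdown.

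The steepest fall was that of Cdh17, a cadherin, from 6.26, 8.02 and 6.42 CPM to 4.71, 3.22 and 3.75 CPM (log2 fold change -0.82 ± 0.16). Gjb1, the connexin of hepatocyte gap junctions, fell from 124, 104 and 121 CPM to 82.4, 78 and 81.6 CPM (-0.53 ± 0.06, adjusted p = 7.14e-07, edgeR). Lmcd1, a LIM domain protein gene, fell by 0.63, Plat, tissue plasminogen activator, by 0.52, Kctd11 by 0.51, and Sec16b, of ER exit sites, by 0.45 on the log2 scale. Crct1 fell by 0.45, and the neuropeptide gene Npy, the amino acid transporter Slc38a3 and the activin receptor Acvr1 each fell by 0.4. Bile duct markers were lower too: the summed level of 8 was 508 to 559 CPM with GW and 626 to 655 CPM with vehicle, carried by Spp1 (-0.31 ± 0.08, adjusted p = 0.109) and Sox9 (-0.22 ± 0.05, adjusted p = 0.00895, edgeR). Sox9 lost its call without GW replicate 1, vehicle replicate 1 or vehicle replicate 3. The duct keratin Krt7 was at 0.0432 CPM with vehicle and 0.128 CPM with GW. In bulk RNA, fewer cells of a type and less RNA per cell cannot be told apart, and the part of such cells in the falls was not tested. The summed level of 10 sinusoidal endothelium markers was low in both groups, 21.5 to 22.8 CPM with GW and 16.7 to 21.1 CPM with vehicle, and the ranges did not overlap. Of the 8 tested, 7 had a positive log2 fold change (median 0.3) and 0 were called.

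Called changes among inflammatory and acute phase genes were small in size. Of 12 inflammatory genes tested, 4 had an unadjusted p under 0.05, and of 22 acute phase genes 7 did. DESeq2 called 5 of these 22 and limma-voom 4. Over all 16098 genes tested, edgeR called 1.11%, and 1329 had an unadjusted p under 0.05. Cxcl10, a chemokine gene induced by interferon, rose from 173 ± 8.59 to 222 ± 3.74 CPM (SD, n = 3 each; log2 fold change 0.36 ± 0.05), the 1 called gene of 12 tested in its list. Of 22 acute phase genes, Lbp, which binds bacterial lipopolysaccharide, rose by 0.45 ± 0.08, Cp, the copper carrier, by 0.2 ± 0.04, and Steap4, a metal reductase, fell by 0.23. Cp and Steap4 each lost their calls without GW replicate 1 and without vehicle replicate 3, and also without GW replicate 3 or GW replicate 2, respectively. In the cytoskeleton list Vim, vimentin, fell by 0.23, a call lost without GW replicates 1 or 2 or vehicle replicates 1 or 3.

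With edgeR, 10 of the 27 lists had 0 members called: the receptors, cholesterol synthesis, glycolysis, growth hormone response, complement and coagulation, interferon-stimulated genes, NRF2 antioxidant targets, amino acid response, cell cycle and circadian clock. Of the 154 tested entries in these lists, 22 had an unadjusted p under 0.05, DESeq2 called 1 and limma-voom called 1. Over all 16098 genes tested, 1329 had an unadjusted p under 0.05, a smaller share, so these lists are not shown to be unchanged.

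To see how far the response was that of hepatocytes, GW effects were compared with those in microglia and BMDM in 1 fit of all 27 libraries. In that fit GW called 88 of 18979 genes (0.464%) in hepatocytes, 3748 (19.7%) in microglia and 2442 (12.9%) in BMDM, relative to each cell type's own vehicle. The response itself differed between hepatocytes and microglia in 1649 genes (8.69%) and between hepatocytes and BMDM in 899 (4.74%). It was higher in hepatocytes than in microglia for 691 genes (3.64%) and lower for 958 (5.05%); against BMDM these were 303 (1.6%) and 596 (3.14%). Microglia and BMDM were treated in a medium with M-CSF, insulin and albumin, so medium and cell type cannot be told apart here. Of the 116 genes higher in hepatocytes, 54 were called higher in microglia as well, which is 46.6% of the hepatocyte calls and 2.89% of the 1871 microglial ones; of all genes tested, 9.86% were called higher in microglia. Another 14 of the 116 were called lower there. With BMDM 45 were shared, 38.8% of the hepatocyte calls and 3.12% of the 1442 in BMDM, where 7.6% of all genes were called higher, and 7 of the 116 were called lower. Of the 62 genes lower in hepatocytes, 16 (25.8%) were called lower and 6 higher in microglia, and 11 (17.7%) lower and 6 higher in BMDM, where 9.89% and 5.27% of all genes, respectively, were called lower. Called higher in microglia, BMDM and, by the fit of the hepatocyte libraries, hepatocytes were 41 genes, among them Abca1, Abcg1, Srebf1, Scd1, Fasn, Acaca, Lpcat3 and Insig1.

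Abca1 responded by similar amounts in the 3 cell types: its log2 fold changes were 1.91 ± 0.08 in hepatocytes, 2.17 ± 0.08 in microglia and 2 ± 0.08 in BMDM. The difference was -0.26 ± 0.11 to microglia (adjusted p = 0.167) and -0.09 ± 0.11 to BMDM (adjusted p = 0.734), neither past the threshold. The level differed: on the scale of this fit, vehicle cells had 50.9 CPM of Abca1 in hepatocytes, 754 CPM in microglia and 609 CPM in BMDM. Abcg1 rose more in hepatocytes, by 2.98 ± 0.23 (adjusted p = 1.85e-11) and 2.93 ± 0.23 (adjusted p = 6.29e-11) on the log2 scale, from a vehicle level of 0.115 CPM against 363 CPM in microglia and 430 CPM in BMDM. The hepatocyte vehicle libraries held 16 counts of Abcg1 together. The SE of its hepatocyte response was 0.2 in this fit and 0.41 in the fit of the hepatocyte libraries, so the SE of these differences may be too low.

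Of 18 fatty acid synthesis genes, the log2 response was lower in hepatocytes than in microglia for 10 and higher for 1. Against BMDM it was lower for 8 and higher for 0. The 1 higher gene was Elovl2, with log2 fold changes of 0.05 ± 0.13 in hepatocytes and -1.37 ± 0.43 in microglia. Scd1 rose by 1.92 ± 0.1 in hepatocytes, 4.31 ± 0.13 in microglia and 4.33 ± 0.12 in BMDM, and the differences were -2.38 ± 0.16 and -2.41 ± 0.15 (adjusted p = 1.24e-09 and 4.93e-10). The other desaturase genes did not differ past the threshold: against microglia and BMDM, Scd2 differed by -0.46 ± 0.22 and -0.11 ± 0.22, Scd3 by -0.65 ± 0.22 and -0.45 ± 0.23, and Scd4 by 0.13 ± 0.38 and -0.13 ± 0.39, with adjusted p from 0.0635 to 0.935. The vehicle level of Scd1 was 775 CPM in hepatocytes, 5.74 CPM in microglia and 21.6 CPM in BMDM. For Fasn the differences were -1.2 ± 0.22 and -1.01 ± 0.22, for Srebf1 -0.67 ± 0.11 and -0.85 ± 0.11, and for Lpcat3 -1.18 ± 0.08 and -0.87 ± 0.08. Acaca differed from BMDM (-0.55 ± 0.15, adjusted p = 0.0254) and not beyond the threshold from microglia (-0.25 ± 0.15, adjusted p = 0.379).

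Of the 20 cholesterol synthesis genes, GW called 19 higher in microglia, 10 in BMDM and 0 in hepatocytes in this fit. The response of 18 of the 20 was smaller in hepatocytes than in microglia, with a median difference of -1.08, and that of 2 was smaller than in BMDM (median -0.25). Cyp51 rose by 1.55 ± 0.13 in microglia and had log2 fold changes of 0.28 ± 0.12 in BMDM and -0.05 ± 0.12 in hepatocytes. Cyp51 (-1.6 ± 0.18) and Insig1 (-1.39 ± 0.16) differed from microglia, with adjusted p of 2.28e-06 and 1.91e-06 (edgeR), and neither differed from BMDM past the threshold. Apoe, flat in hepatocytes, rose by 1.38 ± 0.05 in microglia and 1.08 ± 0.05 in BMDM.

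Eepd1, a nuclease-domain protein gene known as an LXR target in macrophages, moved in opposite directions. It fell in hepatocytes from 65.5, 66.1 and 65.9 CPM to 48.6, 44.7 and 43.3 CPM, and rose by 1.71 in microglia and 1.91 in BMDM on the log2 scale. The response differed by -2.25 ± 0.08 from microglia (adjusted p = 5.69e-20) and by -2.45 ± 0.08 from BMDM (adjusted p = 8.19e-21). Angptl4 fell in hepatocytes and rose by 1.7 in microglia and 0.72 in BMDM, with differences of -2.01 ± 0.23 and -1.03 ± 0.21. Cxcl10 rose in hepatocytes and fell by 2.49 on the log2 scale in microglia, a difference of 2.83 ± 0.49 (adjusted p = 0.000657). Its difference to BMDM was 1.23 ± 0.37 (adjusted p = 0.064). The hepatocyte calls of Angptl4 and Cxcl10 are those of the fit of the hepatocyte libraries. In the fit of all 27 libraries Angptl4 was not called lower in hepatocytes, and Cxcl10 was not called there (0.35 ± 0.21, adjusted p = 0.942, edgeR). Of the 20 genes of the ER list, the log2 response was lower in hepatocytes than in microglia for 12 and higher for 1. That 1 was Ddit3, with log2 fold changes of 0.34 ± 0.13 in hepatocytes and -0.76 ± 0.13 in microglia. Against BMDM the log2 response was lower for 1 gene and higher for 2.

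**Figure D5:**
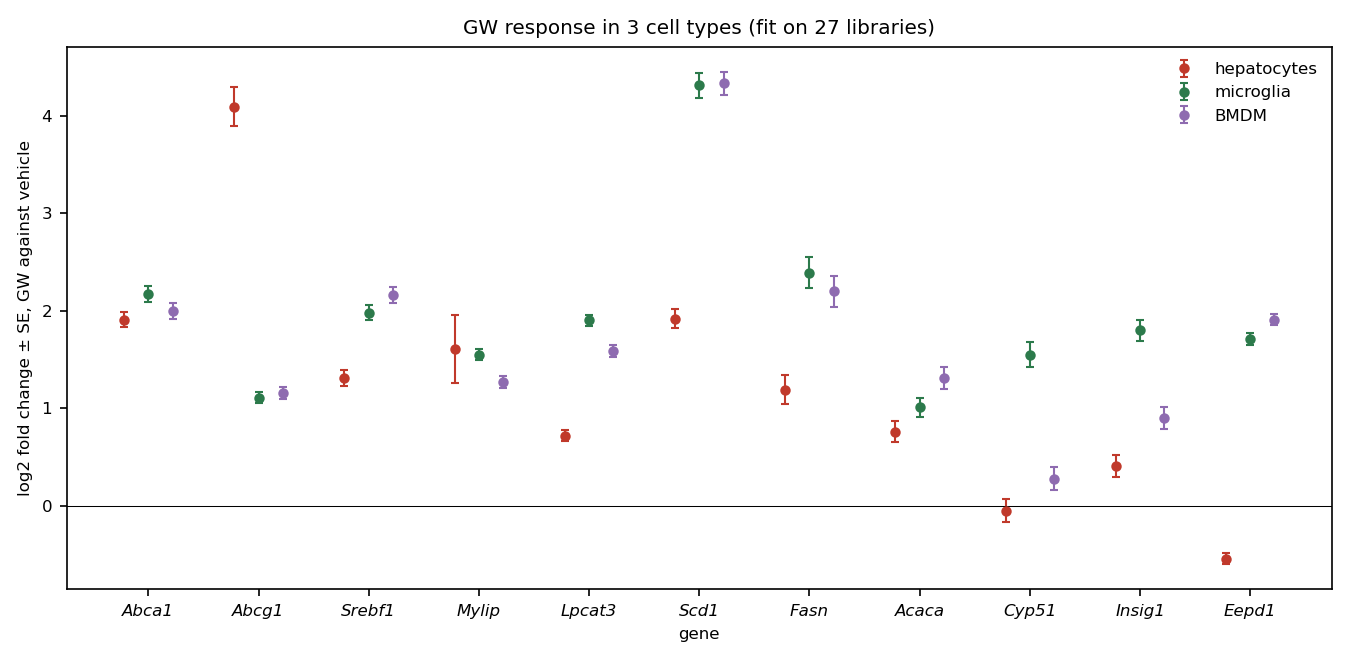
Points are log2 fold changes, GW against vehicle, with standard errors for 11 genes in hepatocytes (red), microglia (green) and BMDM (purple), from the fit of all 27 libraries. Abca1 lies near 2 in each cell type, Cyp51 lies near 0 in hepatocytes and at 1.55 in microglia, and Eepd1 is below 0 in hepatocytes.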

How the data were processed

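Poly(A)-primed libraries (SMARTer Ultra Low kit, per the labels' protocols) were demultiplexed with bcl2fastq, aligned to GRCm38 with STAR 2.5.1a and counted with featureCounts 1.4.6-p5 of Subread, as the submitters' processing notes list them. Which annotation release, strand option and multi-mapping option were set is not given in the sources used here. The authors deposited raw counts per gene, used in all tests. The authors also deposited CPM (equal to count over library total), TPM, used here for levels between genes, and FPKM, not used. Of 55774 lines, 55487 identifiers were unique.

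In R 4.3.3, edgeR 4.0.16 was run on the 9 hepatocyte libraries (filterByExpr, TMM, robust quasi-likelihood test, Benjamini-Hochberg adjustment, threshold 0.05) and on all 27 for differences between cell types; an SE is the log2 fold change over the root of F. Alternatives used DESeq2 1.42.0, limma-voom (limma 3.58.1), DESeq2 size factors, no filter, the 6 libraries alone, a replicate block and each library left out. The fits were tested on simulated data. Libraries of 1 group differed by more than sampling noise, with a chi-square of 4.47 to 10.67 per degree of freedom.

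Named genes are the 12 largest rises and 12 largest falls among called genes at 1 CPM or more with separate groups, the 4 called members with the largest change of each list, further list members, and a panel of 12 genes for the cell types; other genes were chosen after their values were seen. Some of these genes are not reported here. The comparison, its 27 gene lists and the 7 marker lists were chosen with earlier results of these data known. The symbols Cyr61 and Ctgf stand as Ccn1 and Ccn2 in the files. Promoters are RefSeq windows on GRCm38.p6, matched by symbol.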

Additional observations from a re-analysis of the deposited data

Results flagged for a closer look

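The GW response was tested for a difference between hepatocytes and each of the other cell types, and it differed in 1649 genes against microglia and 899 against BMDM. Treatment medium and cell type cannot be told apart in these differences. Against microglia, the log2 response of Abcg1 was higher in hepatocytes by 2.98. That of Srebf1 (-0.67), Lpcat3 (-1.18), Scd1 (-2.38), Fasn (-1.2), Cyp51 (-1.6) and Insig1 (-1.39) was lower in hepatocytes. Against BMDM, Abcg1 was again higher, by 2.93, and Srebf1 (-0.85), Lpcat3 (-0.87), Scd1 (-2.41), Fasn (-1.01) and Acaca (-0.55) were lower. Abca1 and Mylip did not differ past the threshold from either cell type.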

How the results depend on the processing

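Of the 52 called genes named by the rule, 43 kept their call under all 12 alternatives that gave a value, and 0 reversed; of all 178 called genes, 95 did so. The total was 182 with DESeq2 size factors, 187 with limma-voom and 187 on the 6 libraries alone. Genes called lower numbered 100 with DESeq2 and 96 without a filter, against 62. With the replicate number as a block, 286 genes were called, 171 higher and 115 lower, and all 178 were among them. Same-numbered GW and vehicle libraries correlated at 0.161, 0.322 and 0.092. In 6 of 9 comparisons of a hepatocyte library with another hepatocyte group, the library of the same number correlated best. The labels do not say that equal numbers mark shared animals, so the block was kept as an alternative. Whether the numbers pair the samples was not tested further. Leaving out each library gave 125 to 220 called genes, 80 to 137 higher and 35 to 83 lower. It gave 1352 to 1480 genes that differed from microglia and 661 to 916 that differed from BMDM. Members called higher in the ER list ranged from 7 to 12. The cause of these shifts was not tested. Whether depth limited the calls of low genes such as Mylip and Abcg5 was not tested.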

Other observations

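Several called genes outside the lists handle fatty acids or membrane lipids, and are given here after their values were seen. The fatty acid-binding protein genes Fabp4 and Fabp5 rose by 1.09 ± 0.21 and 0.8 ± 0.1 on the log2 scale, Fabp4 from 1.94, 1.83 and 2.76 CPM to 4.01, 5.25 and 4.68 CPM. Mid1ip1, an activator of acetyl-CoA carboxylase, rose from 45 ± 0.71 to 74.3 ± 1.53 CPM (SD, n = 3 each). Mfsd2a, a transporter of lysophospholipids, rose by 0.61 ± 0.1, Gramd1b, an ER sterol carrier, by 1.16 ± 0.18, Acot2 by 0.46 ± 0.09 and Acsl4 by 0.39 ± 0.07. The lipid carrier genes Scp2 (517 to 631 CPM) and Dbi (296 to 359 CPM) rose by 0.29 ± 0.04 and 0.28 ± 0.05. All of these kept their calls under all 12 alternatives.

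Errfi1, an inhibitor of the epidermal growth factor receptor, rose from 139, 126 and 131 CPM to 239, 207 and 221 CPM in hepatocytes (log2 fold change 0.76 ± 0.05), and the response differed from microglia by 0.72 ± 0.11 and from BMDM by 0.81 ± 0.11. Egr1 and Dusp5, early genes of growth factor signalling, fell by 0.26 and 0.35 on the log2 scale. Klf15, a transcription factor of fasting metabolism, rose by 0.83 ± 0.14. The nuclear lamina gene Lmna fell from 1396, 1200.5 and 1301 CPM to 1107, 1032 and 1126.5 CPM. It was 1 of 8 genes called lower in microglia, BMDM and, by the fit of the hepatocyte libraries, hepatocytes. The others were Vim, Ahnak, Myof, Mical2, Rhob, Ptk2b and Ctsl. In the fit of all 27 libraries Vim was not called lower in hepatocytes. Steap3, an endosomal iron reductase, rose in hepatocytes by 0.57 ± 0.06 and fell in microglia by 0.68 and in BMDM by 0.5, with differences of 1.24 ± 0.09 and 1.06 ± 0.09.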
